A study of Mus musculus with 2 samples.

Results

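Replication-dependent histone genes encode the H1, H2A, H2B, H3 and H4 proteins that package newly made DNA. Trimethylation of lysine 4 of histone H3 (H3K4me3) at their starts was described here in unstimulated bone marrow-derived macrophages, phagocytes grown in culture from marrow progenitors, of C57BL/6J mice. The genes were chosen by name: every protein-coding gene of GENCODE release M21 whose symbol begins with Hist1h, Hist2h, Hist3h or Hist4, which gave 67 of 21938 protein-coding genes. No measured value entered this choice. The data were H3K4me3 ChIP-seq peak lists of 2 biological replicates of 1 group, with no second condition, no treatment and no knockout. Both replicates carried the same donor entry, so the spread between them may be partly technical, and the age and sex of the mice are not given.

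Histone genes of this class are short, mostly lack introns and lie in clusters, and a coordinated supply of their transcripts is needed when DNA is replicated. Their messenger RNAs end, unlike nearly all others, in a conserved stem-loop rather than a poly(A) tail, and this loop is bound by the protein encoded by Slbp. H3K4me3 marks nucleosomes beside the starts of active and poised promoters, most of all those rich in CpG. Macrophages in culture with growth factor divide to some extent, and the peak lists do not tell which cells of a culture carried the mark.

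The 67 genes comprised 6 H1, 18 H2A, 18 H2B, 12 H3 and 13 H4 genes. Hist1, on chromosome 13, held 54 of them, and they fell into 4 runs separated by more than 100 kb. The first run held 18 genes (chr13:21715763-21837530), the second 5 (chr13:22035164-22043676), the third 29 (chr13:23531050-23764406) and the last 2 (chr13:23933773-23934851). Hist2 held 10 genes (chr3:96219865-96270132), Hist3 held 2 (chr11:58948920-58956830) and Hist4 held 1 (chr6:136801553-136804415). All coordinates are of mm10 (GRCm38). The encoded proteins are highly repetitive: all 13 H4 genes encoded the same protein, 7 of 12 H3 genes shared an H3 protein, 9 of 18 H2A genes shared an H2A protein, and the 6 H1 genes encoded 6 different proteins. Each gene was counted by its longest annotated coding segment. Hist2h3c1 thus entered with a form of 181 residues, where the shared H3 protein has 136, and its shorter form was not counted.

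The promoters below are shown because they carry the contrasts described later. Each is the RefSeq promoter on GRCm38.p6, from 250 bases before to 50 bases after the RefSeq start, written 5′ to 3′. Capitals mark 5 motifs known from histone promoters, on either strand. They are TATAAA, where the general transcription machinery assembles, then CCAAT, which the NF-Y complex recognises, and ATTTGCAT, the octamer bound by the factor of Pou2f1. The others are AAACACA, known from H1 promoters, and GGTCC, the core of the site that Hinfp binds at H4 promoters. The last of these can share its C bases with the motif of NF-Y, as it does in Hist1h3b. Hist3h2a had the highest fold among the members marked in both replicates and Hist1h3b the lowest. Hist1h1b is an H1 gene whose whole coding span lay inside a peak, and Hist1h4b is the H4 gene of lowest mean fold percentile among those marked in both replicates. Hist1h2ae shares its promoter, read from the other strand, with Hist1h2bg. Hist1h1d had no peak at its GENCODE start. Hist1h2bq and Hist1h2br are the repeated H2B genes that had none.
Hist3h2a, chr11:58954435-58954734, plus strand: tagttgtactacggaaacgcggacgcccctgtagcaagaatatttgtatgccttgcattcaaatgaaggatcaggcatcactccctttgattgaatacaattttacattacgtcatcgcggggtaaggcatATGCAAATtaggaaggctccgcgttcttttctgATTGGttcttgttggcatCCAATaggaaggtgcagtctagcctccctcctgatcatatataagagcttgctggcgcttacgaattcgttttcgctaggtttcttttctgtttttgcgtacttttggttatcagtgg
Hist1h3b, chr13:23752095-23752394, plus strand: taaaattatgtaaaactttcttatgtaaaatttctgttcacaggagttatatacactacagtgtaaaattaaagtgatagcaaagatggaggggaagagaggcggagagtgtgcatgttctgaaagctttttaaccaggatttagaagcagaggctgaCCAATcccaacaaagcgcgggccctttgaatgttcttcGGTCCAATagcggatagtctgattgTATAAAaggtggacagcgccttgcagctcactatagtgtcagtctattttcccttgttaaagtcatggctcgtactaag
Hist1h1b, chr13:21780576-21780875, minus strand: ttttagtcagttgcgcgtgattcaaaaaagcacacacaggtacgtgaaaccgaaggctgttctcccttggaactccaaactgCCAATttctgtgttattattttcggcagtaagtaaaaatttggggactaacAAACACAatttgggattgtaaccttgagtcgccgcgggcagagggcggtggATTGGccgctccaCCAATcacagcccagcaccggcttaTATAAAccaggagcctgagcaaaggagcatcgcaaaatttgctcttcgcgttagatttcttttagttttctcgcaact
Hist1h4b, chr13:23756687-23756986, plus strand: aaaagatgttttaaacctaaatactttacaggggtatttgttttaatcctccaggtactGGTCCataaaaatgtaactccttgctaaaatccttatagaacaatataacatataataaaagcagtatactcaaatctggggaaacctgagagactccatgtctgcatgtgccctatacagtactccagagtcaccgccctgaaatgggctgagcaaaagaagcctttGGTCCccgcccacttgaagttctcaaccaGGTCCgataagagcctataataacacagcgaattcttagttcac
Hist1h2ae, chr13:23571171-23571470, minus strand: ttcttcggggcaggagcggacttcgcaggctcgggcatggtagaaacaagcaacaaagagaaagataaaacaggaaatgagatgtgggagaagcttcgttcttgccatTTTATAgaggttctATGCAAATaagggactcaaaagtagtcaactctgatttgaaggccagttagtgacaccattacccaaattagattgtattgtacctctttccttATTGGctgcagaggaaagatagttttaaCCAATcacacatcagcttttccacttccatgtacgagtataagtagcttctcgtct
Hist1h1d, chr13:23554782-23555081, plus strand: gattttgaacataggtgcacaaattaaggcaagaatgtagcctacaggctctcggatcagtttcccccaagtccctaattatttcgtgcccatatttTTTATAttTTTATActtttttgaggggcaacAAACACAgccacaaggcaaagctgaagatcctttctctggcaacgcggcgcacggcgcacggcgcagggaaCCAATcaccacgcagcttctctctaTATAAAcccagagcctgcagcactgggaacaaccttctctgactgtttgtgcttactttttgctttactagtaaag
Hist1h2bq, chr13:21810150-21810449, minus strand: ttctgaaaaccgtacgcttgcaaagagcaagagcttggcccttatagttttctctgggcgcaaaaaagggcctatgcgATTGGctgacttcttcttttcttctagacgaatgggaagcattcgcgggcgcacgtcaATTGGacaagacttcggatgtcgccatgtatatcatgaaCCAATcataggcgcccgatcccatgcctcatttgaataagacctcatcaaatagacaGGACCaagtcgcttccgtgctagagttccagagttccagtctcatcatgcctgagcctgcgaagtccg
Hist1h2br, chr13:21833493-21833792, plus strand: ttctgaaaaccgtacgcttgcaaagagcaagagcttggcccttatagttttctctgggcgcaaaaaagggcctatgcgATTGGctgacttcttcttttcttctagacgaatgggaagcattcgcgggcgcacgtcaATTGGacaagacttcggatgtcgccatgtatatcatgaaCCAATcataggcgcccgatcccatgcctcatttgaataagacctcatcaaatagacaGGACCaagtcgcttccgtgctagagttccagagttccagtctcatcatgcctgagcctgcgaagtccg

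Of the 67 genes, 62 had a promoter in the RefSeq table, and all 63 of their promoter sequences equalled the genome. Hist1h3f, Hist1h2bc, Hist1h3a, Hist2h4 and Hist2h2be had no match. CCAAT was found in 85.5% of the 62 histone promoters and in 38.2% of 21263 coding promoters of the same length. It was present in all 6 H1, all 18 H2A, all 16 H2B and all 10 H3 promoters matched, but in 3 of 12 H4 promoters. GGTCC showed the reverse distribution, with 11 of 12 H4 promoters, and 41.9% of all histone promoters against 49.0% of all coding promoters. TATAAA was in 56.5% of histone promoters and 12.6% of all coding promoters. ATTTGCAT was in 7 H2A and 6 H2B promoters and in no H1, H3 or H4 promoter, in all 21.0% against 1.66%. AAACACA was in 5 of 6 H1 promoters, and in 14.5% of histone promoters against 6.15% of all coding promoters. These are matches of letters and not mapped binding sites. Promoters of neighbouring H2A and H2B genes on opposite strands can overlap, so the same match can count for both genes.

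Marking was read from the separate lists of both replicates: a gene counted as marked if each list had a peak reaching, by 1 bp or more, into the 1 kb on either side of at least 1 of its annotated transcript starts. The lists held 20031 peaks in replicate 1 and 16376 in replicate 2. The lists hold no read counts, so the depth is unknown. The cell type label was checked against its markers: 8 of 8 macrophage genes (such as Csf1r, Spi1 and Mpeg1) were marked in both replicates, and 0 of 4 T cell, 0 of 4 B cell, 0 of 4 neutrophil and 0 of 4 fibroblast genes had a peak. The mark cannot tell fewer marked cells from less of it per cell.

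Most histone genes carried H3K4me3. Of the 67, 49 (73.1%) were marked in both replicates, against 49.5% of all protein-coding genes called the same way. A further 8 had a peak in replicate 1 only, where 4.00% of all protein-coding genes did. The other 10 had no peak in either replicate, where 46.4% of all protein-coding genes had none. Histone starts are rich in CpG, with a median observed/expected ratio of 0.757 in the 1 kb on either side of the gene's 5′ end against 0.474 over all protein-coding genes. Of the 56 histone genes in the highest tertile of CpG ratios, 41 (73.2%) were marked in both replicates, below the 80.5% of all protein-coding genes in that tertile. These 56 included all 10 histone genes with over 50% of the 50-base words around their start copied elsewhere in the genome. Of those 10, 3 (30.0%) were marked in both replicates and 1 had a peak in replicate 1 only, all of them in Hist2. The 6 with no peak were in Hist1. Of the 57 other histone genes, of any CpG tertile, 46 (80.7%) were marked in both replicates. The part of copying in the lower share was not tested. No test was possible with 1 group, and all counts are descriptions.

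By type, the H3 genes were marked in both replicates most often, 11 of 12, and Hist1h3e had a peak in replicate 1 only. Among the linker histone genes 4 of 6 were marked, among H2A genes 13 of 18, among H2B genes 12 of 18 and among H4 genes 9 of 13. By cluster, the counts were 38 of 54 in Hist1, 9 of 10 in Hist2, 1 of 2 in Hist3 and 1 of 1 in Hist4. Within Hist1 the first run had 11 of 18, the second 5 of 5, the third 22 of 29 and the last 0 of 2. A narrower window of 500 bp gave 39 of 67 (58.2%) against 48.8% of all protein-coding genes, and H2B fell to 7 of 18 under it.

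**Figure D1:**
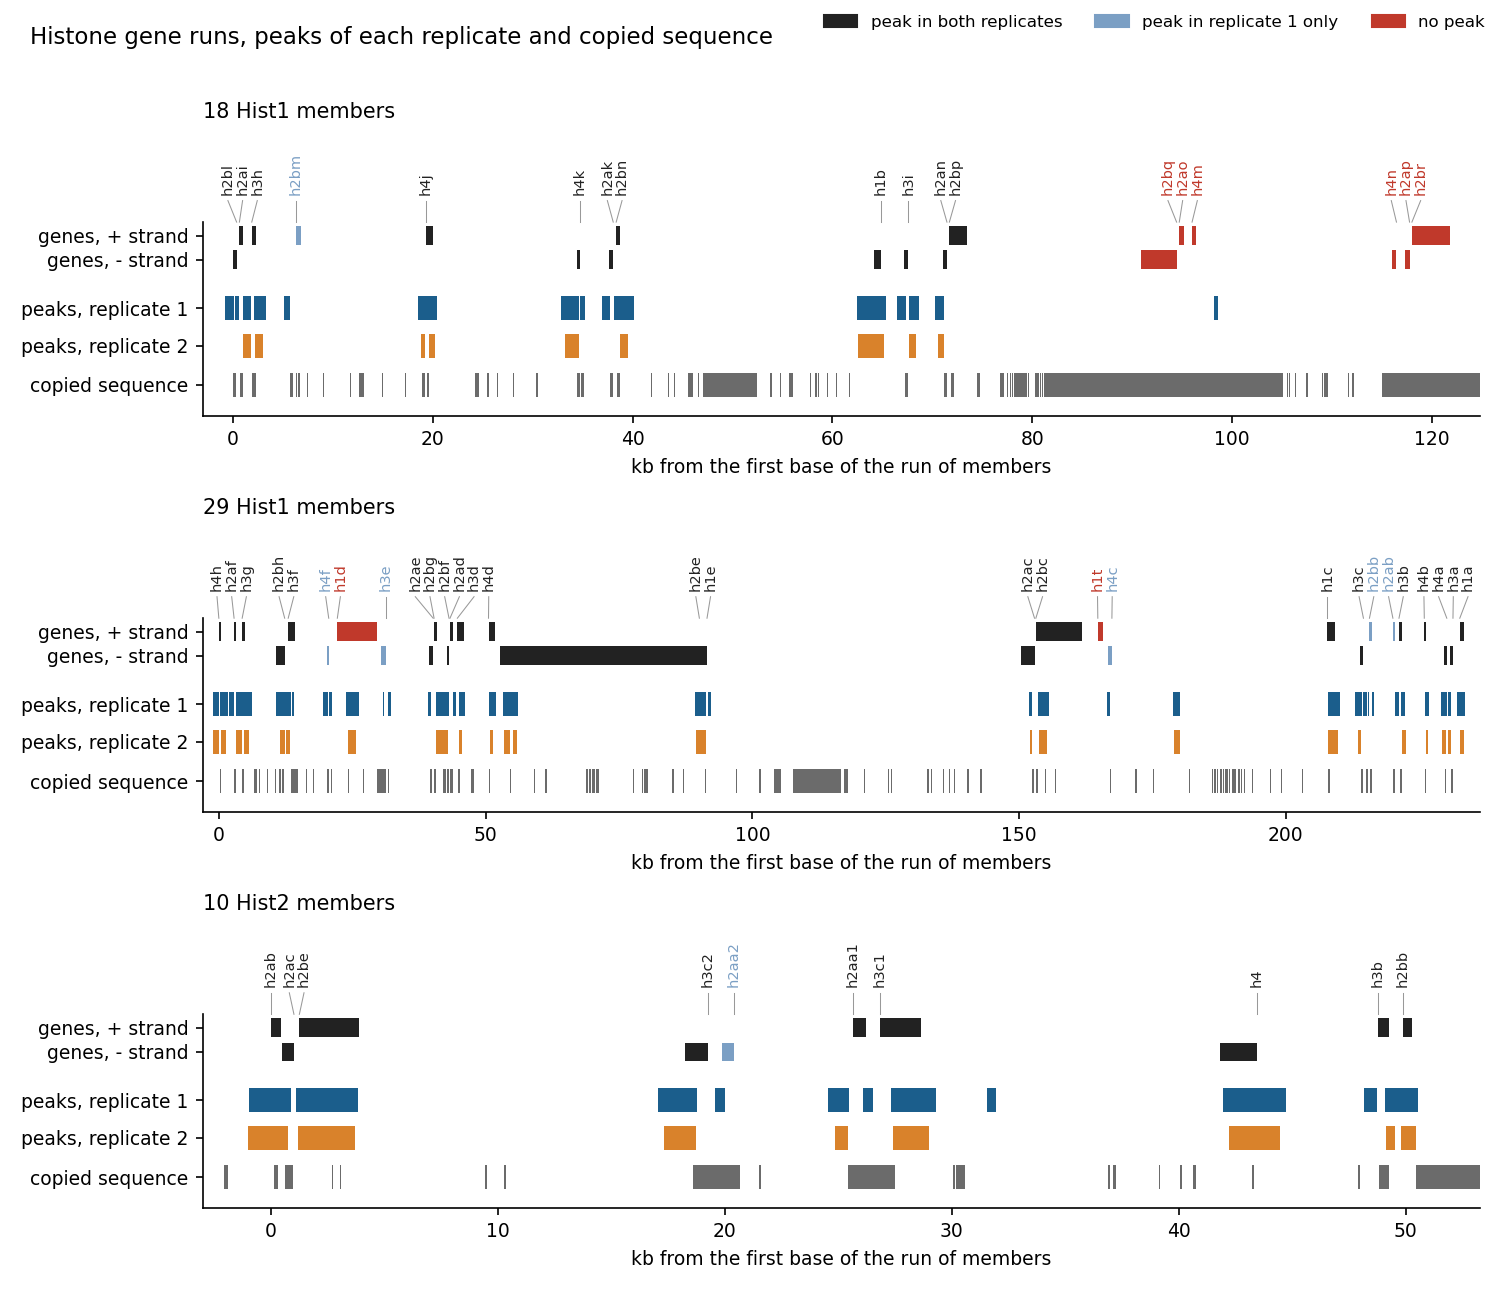
Maps of the 3 largest runs, in kb from the first base of each: genes by strand (black, peak in both replicates; light blue, replicate 1 only; red, no peak), peaks of replicate 1 and replicate 2, and sequence whose 50-base words have an identical copy elsewhere in the genome (grey). The 6 red genes at the right of the first run lie on copied sequence, with 92.0% to 100% of the words in their windows copied.

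The 10 histone genes without a peak fell into 3 kinds. The first was a block of 6 genes in the first run: Hist1h2bq, Hist1h2ao and Hist1h4m (chr13:21806612-21812147), and Hist1h4n, Hist1h2ap and Hist1h2br (chr13:21831767-21837530), which encode H2B, H2A and H4 in each copy. The promoters of Hist1h2bq and Hist1h2br printed above were equal at 300 of 300 bases. Of the 50-base words in the windows of these 6 genes, between 92.0% (Hist1h4n) and 100% (4 genes) had an identical copy elsewhere in the genome. The copies occurred mostly as a pair: 83.0% of the copied words of the first block and 83.7% of those of the second were present exactly 2 times. Neither block held a peak of either replicate. The nearest peak of replicate 2 lay from 21615 bp (Hist1h2br) to 24827 bp (Hist1h4m) from a start, and the nearest of replicate 1 from 2228 bp (Hist1h4m) to 19426 bp (Hist1h2br). Whether reads from copied sequence were kept when the lists were made is not given in the sources used here, and the part of copying in these absent peaks was not tested.

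The second kind was 3 genes known for expression in testis. Hist1h1t, the testis linker histone, lay 1706 bp from the nearest peak of replicate 1 and 9505 bp from that of replicate 2, and 0% of the words in its window were copied. Hist1h2ba and Hist1h2aa, the testis H2B and H2A pair, made up the last Hist1 run by themselves. Hist1h2ba lay 102108 bp from the nearest peak of replicate 1 and 102203 bp from that of replicate 2. Hist1h2aa lay 101802 bp and 101897 bp from them. Of the words in both windows 7.07% were copied, so these starts were largely of sequence found once in the genome.

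The third was Hist1h1d, an H1 gene whose GENCODE 5′ end is at chr13:23553262. No peak lay within 1 kb of it: the nearest was 1092 bp away in replicate 1 and 2033 bp away in replicate 2. The RefSeq start of the gene, at chr13:23555032, lay inside a peak of replicate 1 (chr13:23554894-23557261, 2368 bp, fold 22.8). In replicate 2 a peak covered chr13:23555295-23556782 (1488 bp, fold 8.22), just downstream of that start. These peaks covered 100% of the coding span of Hist1h1d in replicate 1 and 69.1% in replicate 2. The RefSeq promoter printed above holds the AAACACA motif of H1 promoters, as well as the motifs of NF-Y and of the TATA box. With RefSeq starts in place of GENCODE starts, Hist1h1d was called marked in both replicates.

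The 8 genes with a peak in replicate 1 only had low folds in that list. Folds are the authors' own value for each peak, and they were compared within a list only. Hist2h2aa2 had the highest of the 8, 10.3 (414 bp), followed by Hist1h2bb with 8.39 (724 bp) and Hist3h2ba with 7.47 (737 bp). Hist1h2bm had 6.65 (614 bp), Hist1h4f 6.35 (877 bp), Hist1h3e 6.35 (682 bp), Hist1h4c 6.32 (651 bp) and Hist1h2ab 4.75 (813 bp). All 8 stood below the median fold of the 49 genes marked in both replicates, 19.1 in replicate 1. The nearest peak of replicate 2 was between 1589 bp (Hist1h2bb) and 11712 bp (Hist1h4c) from their starts.

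Where the mark was present it was weak by the standard of other marked genes. The fold of a gene was that of its highest peak within 1 kb of a start. The width given beside it was that of its widest peak there, which could be another peak. Its median over the 49 histone genes marked in both replicates was 19.1 in replicate 1, against 38.9 over the 10869 protein-coding genes marked in both. In replicate 2 the medians were 5.22 and 14.9. Each fold was also ranked within its replicate among the 10869 genes, and the percentiles were averaged over the replicates. The median of the 49 histone genes was the 9.46th percentile, and 25 of 49 lay below the 10th percentile, where 9.68% of all marked genes did. Below the 25th percentile lay 40 of 49, against 24.9% of all marked genes, and Hist3h2a alone lay above the 50th. Across the 49 genes, which share peaks with each other and came from the same 2 libraries, the folds of the replicates ranked alike (Spearman's rho 0.902, a description). The median percentile was 11.5 in replicate 1 alone and 6.22 in replicate 2 alone.

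**Figure D2:**
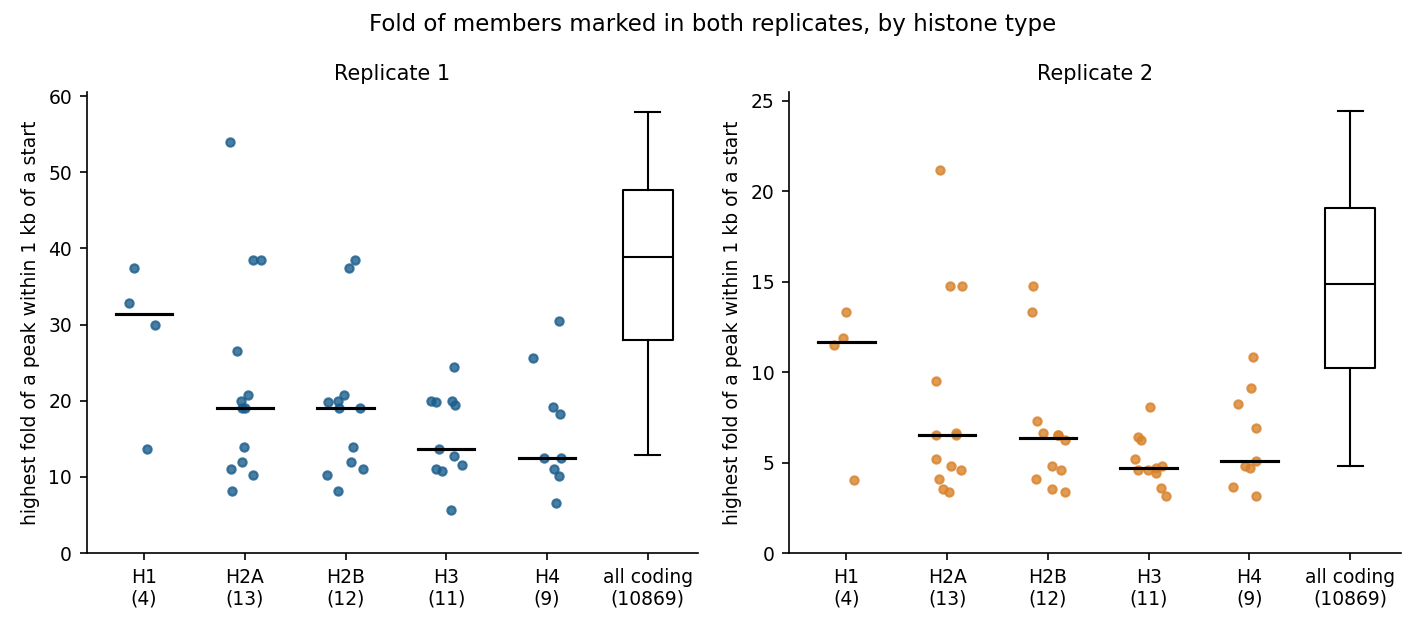
Highest fold of a peak within 1 kb of a start for each of the 49 histone genes marked in both replicates, by histone type (points; the bar is the median, the number of genes is in brackets), beside all 10869 marked protein-coding genes (box: quartiles; whiskers: 5th to 95th percentile). Left, replicate 1; right, replicate 2; the scales differ. The medians of H3 (13.6 and 4.70) and H4 (12.5 and 5.09) are the lowest, and most points of every type but H1 lie under the box.

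By type, the median fold was highest for H1 genes, 31.4 in replicate 1 and 11.7 in replicate 2. For H2A genes it was 19.1 in replicate 1 and 6.50 in replicate 2. For H2B genes it was 19.1 in replicate 1 and 6.38 in replicate 2. For H3 genes it was 13.6 and 4.70, and for H4 genes 12.5 and 5.09. As mean percentiles these were 31.9 for H1, 10.8 for H2A, 10.8 for H2B, 5.16 for H3 and 5.17 for H4. These medians are not of separate peaks. The 19.1 of H2A and of H2B was the fold of the same peak, which touched 4 of these genes. The 13.6 of H3 was that of a peak Hist1h3a shared with the H1 gene Hist1h1a. By cluster the 9 marked Hist2 genes had a median percentile of 20.6, and the 38 marked Hist1 genes one of 4.63. Within Hist1 the medians were 4.27 in the first run, 4.09 in the second and 10.8 in the third.

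The gene with the strongest mark was Hist3h2a, an H2A gene outside the large clusters. It had a fold of 54.0 and a peak of 4024 bp in replicate 1, and 21.1 and 3578 bp in replicate 2, with a mean percentile of 87.1. Its peak also touched the start window of Trim17, a neighbouring coding gene, so the value is not that of Hist3h2a alone. Hist3h2ba, the H2B gene beside it, had only the peak of 737 bp in replicate 1 given above.

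Next came 3 Hist2 genes that lie within 4 kb of each other. Hist2h2ab, Hist2h2ac and Hist2h2be each had a fold of 38.5 in replicate 1 and 14.7 in replicate 2, because their windows touched the same peaks, and a mean percentile of 48.9. Hist2h2ab had widths of 1861 and 1769 bp. Hist2h2ac and Hist2h2be shared wider peaks of 2718 and 2495 bp, with lower folds of 28.8 and 7.79. The window of Bola1, a coding gene of a mitochondrial protein, was touched by one of these peaks too. Hist2h2be, an H2B gene also known to give polyadenylated transcripts, had no copied words in its coding span.

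The other Hist2 genes were lower. The H4 gene Hist2h4 had 25.6 and 9.14 as its folds in replicates 1 and 2, with widths of 2790 and 2239 bp. Hist2h2aa1 had 26.5 and 9.53, with widths of 921 and 551 bp. The H3 gene Hist2h3c1 had 24.5 and 8.09, with widths of 1994 and 1571 bp, and its copy Hist2h3c2 had 19.4 and 6.40, with 1733 and 1382 bp. Hist2h3b had 19.8 and 4.44, with 1449 and 432 bp. Hist2h2bb had 19.8 and 7.29, with 1449 and 685 bp. The lone Hist4 gene, Hist4h4, had folds of 18.3 and 8.22 over widths of 2678 and 2127 bp.

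Linker histone genes spanned a wide range. Hist1h1e had folds of 37.4 in replicate 1 and 13.3 in replicate 2 (2051 and 1865 bp), which it shared with an annotated upstream start of Hist1h2be. Hist1h1b had 32.9 and 11.9 with 2830 and 2623 bp, a mean width of 2727 ± 146 bp (SD, n = 2). Hist1h1c had 29.9 and 11.5 with 2155 and 1864 bp. Hist1h1a was far lower, with 13.6 and 4.05 over 1508 and 866 bp. Hist1h1d and Hist1h1t, described above, completed the H1 set.

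The lowest folds belonged to core histone genes of Hist1. The H3 gene Hist1h3b had 5.60 in replicate 1 and 3.13 in replicate 2, a mean percentile of 0.35. Its peak of fold 5.60 was 778 bp wide. Its widest peaks were of 813 bp (fold 4.75, shared with Hist1h2ab) and 755 bp. The H4 gene Hist1h4b had 6.54 and 3.13, a mean percentile of 0.42, with 756 and 421 bp. The paired Hist1h2an and Hist1h2bp shared 8.22 and 3.39 (863 and 589 bp), and the paired Hist1h2ah and Hist1h2bk shared 10.2 and 3.53 (833 and 537 bp). Hist1h4j had 10.1 and 3.65 with widths of 1860 and 621 bp. In replicate 2 the fold of 3.65 was that of a peak of 375 bp, and the peak of 621 bp had 3.26.

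As deposited, the peaks at histone genes were narrower than at other marked genes in both replicates. The width of a gene was that of its widest peak touching a window, averaged over the replicates. Its median was 1240.5 bp over the 49 histone genes and 1473.5 bp over all 10869 marked genes. In replicate 1 the medians were 1508 and 1686 bp, and in replicate 2 they were 846 and 1231 bp. When peaks within 1000 bp of each other were joined, the order of the averaged widths turned: 2546.5 bp over histone genes and 1946.5 bp over all marked genes. The turn came from replicate 1, where the joined medians were 3362 and 2149 bp. In replicate 2 the histone genes remained narrower, with 1599 and 1741 bp. All 49 were wider in replicate 1 than in replicate 2, as 98.7% of all marked genes were, and the median ratio of replicate 1 to replicate 2 was 1.37 at histone genes and 1.26 at all marked genes.

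The widest were Hist3h2a (mean 3801 ± 315 bp, SD, n = 2), Hist1h1b, Hist2h2ac and Hist2h2be (both 2607 ± 158 bp) and Hist2h4 (2515 ± 390 bp). Hist1h4b was the narrowest at 589 ± 237 bp. Hist1h2ah and Hist1h2bk followed with 685 ± 209 bp, and Hist1h2an and Hist1h2bp with 726 ± 194 bp. Width and fold percentile rose together over the 49 genes (rho 0.816, a description over genes of the same libraries).

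The starts themselves were often free of peaks. In replicate 1 the 5′ end of 22 of 49 marked histone genes (44.9%) lay inside a peak, against 66.4% of all marked genes. For another 22 of 49 the 5′ end lay in a gap with a peak on each side, against 19.2%. In this list, only downstream peaks were found at 4 (background 7.63%) and only upstream peaks at 1 (background 1.13%). In replicate 2 the 5′ end lay inside a peak at 12 of 49 (24.5%), against 49.5%. A gap with a peak on each side was found there at 7 of 49 (14.3%), against 22.3%, the opposite order to replicate 1. In replicate 2, 20 of 49 (40.8%) had a peak downstream only, against 18.5%, and 10 of 49 (20.4%) upstream only, against 2.68%. At 100 bp inside the gene, 36.7% of histone genes and 71.7% of all marked genes were covered in replicate 1. In replicate 2 these shares were 22.4% and 57.6%. At 600 bp inside, the shares were 95.9% and 85.7% in replicate 1, and 75.5% and 78.6% in replicate 2.

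**Figure D3:**
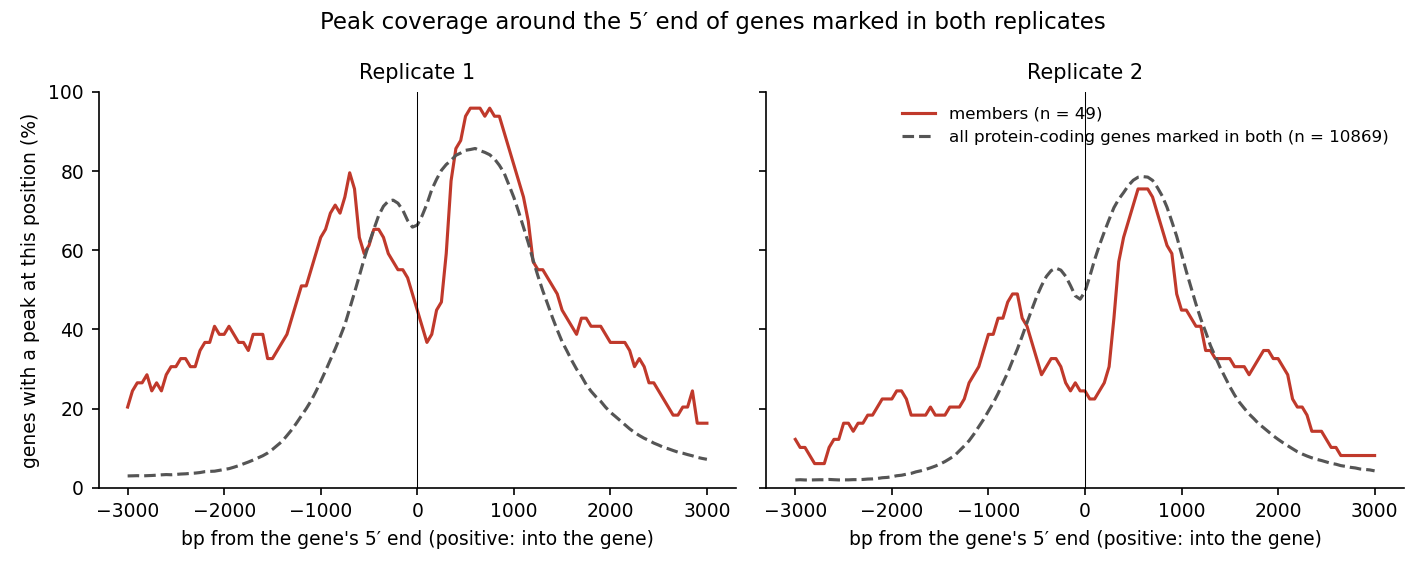
Share of genes with a peak (%) at each distance in bp from the gene's 5′ end, for the 49 histone genes marked in both replicates (solid red) and all 10869 marked protein-coding genes (dashed grey). Left, replicate 1; right, replicate 2. At 100 bp into the gene the histone curve is at 36.7% in replicate 1 and 22.4% in replicate 2, where the curve of all marked genes is at 71.7% and 57.6%.

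Peak coverage of the genes themselves varied with how much of the coding span was repeated in the genome. A median of 76.0% of the 50-base words of the coding span had an identical copy elsewhere, and a median of 40.0% of the coding span lay inside a peak in replicate 1 and 17.8% in replicate 2. At the 9 genes with at most 25% of coding words copied, the median coverage was 100% in both replicates, and the lowest was 77.8% in replicate 1 and 74.2% in replicate 2. Of these, 8 were covered over their whole coding span in both replicates: Hist1h1a, Hist1h1b, Hist2h2ab, Hist2h2bb, Hist2h2be, Hist2h4, Hist3h2a and Hist4h4. The ninth was Hist1h1c. At the 14 genes with over 25% and up to 75% copied, the median was 72.3% in replicate 1 and 29.7% in replicate 2. At the 26 genes with over 75% copied, it was 27.5% in replicate 1 and 3.56% in replicate 2, and the highest coverage in replicate 2 was 28.7%. In replicate 2 the lowest coverage of the first set thus stood above the highest of the last, and in replicate 1 they overlapped.

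Across the 49 genes, coding words copied and coding span covered had a Spearman's rho of -0.717 in replicate 1 and -0.697 in replicate 2. These are descriptions over genes that share libraries, peaks and sequence. Counted over single bases in the windows of the 49 genes, 37.9% of copied bases lay inside a peak of replicate 1, against 79.5% of bases found once. In replicate 2 the shares were 14.3% and 54.0%. Outside coding spans the same order held, with 53.6% and 80.1% in replicate 1, and 20.1% and 52.6% in replicate 2. Fold varied less closely with copying: the percentile had a rho of -0.383 with coding words copied and -0.285 with window words copied. With the CpG ratio the percentile had a rho of -0.027. The part of copied sequence in these gaps was not tested, since the lists hold no reads. Leaving out the 10 genes with over 50% of window words copied, 46 of 57 were marked in both replicates, with a median width of 1214 bp and a median fold percentile of 8.82.

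**Figure D4:**
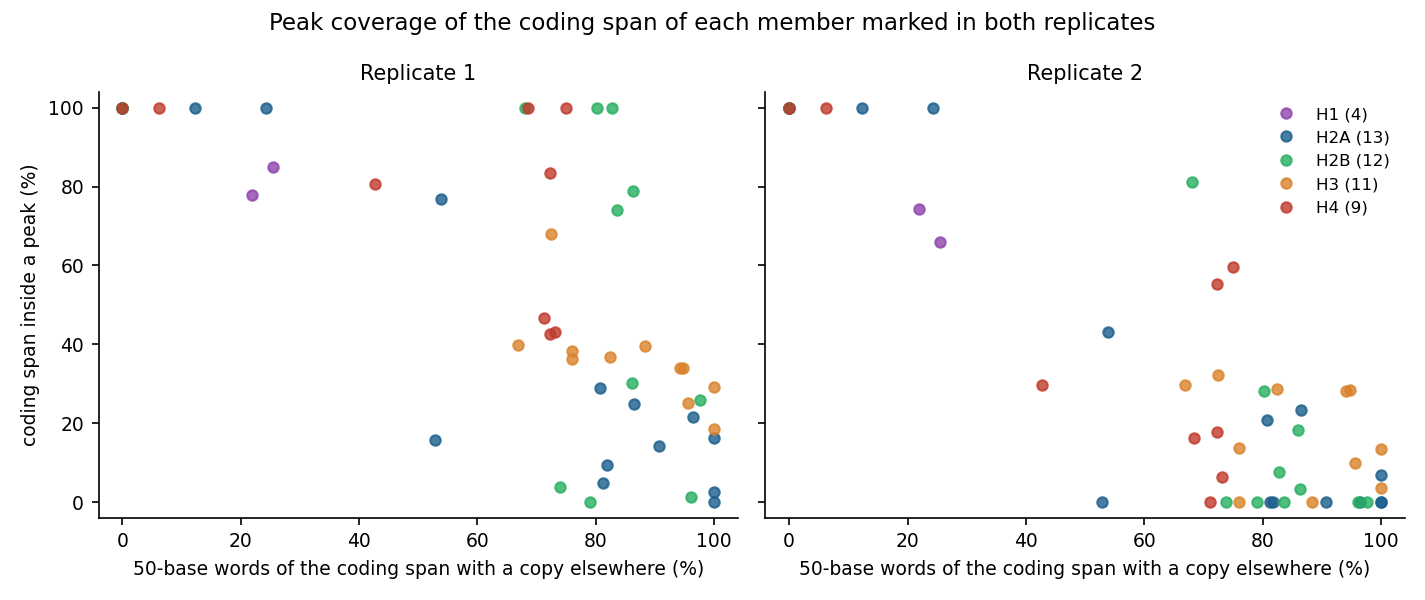
Share of the coding span inside a peak (%) against the share of its 50-base words with an identical copy elsewhere in the genome (%), for each of the 49 histone genes marked in both replicates, coloured by histone type (number of genes in brackets). Left, replicate 1; right, replicate 2. In replicate 2 the 26 genes with over 75% of words copied have at most 28.7% of their coding span inside a peak, and the 9 with at most 25% copied have at least 74.2%. The 9 also have the higher median fold percentile, 29.9 against 6.42.

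Many histone genes share a start region. There were 13 head-to-head pairs with starts on opposite strands within 1000 bp, which took in 26 of the 67 genes. Of these, 12 joined an H2A to an H2B gene, with 176 bp (Hist1h2ae and Hist1h2bg) to 306 bp (Hist1h2ba and Hist1h2aa) between the starts. The other pair was Hist1h2bh and Hist1h3f, 660 bp apart. In 10 pairs both genes were marked in both replicates, in 3 neither had a peak, and no pair had unlike calls, as near starts share most of their window. The 3 were the testis pair and the pairs of the repeated block. The midpoint between the starts lay inside a peak at 4 of the 10 marked pairs in replicate 1, against 79.9% of 1194 other head-to-head coding pairs marked in both replicates. In replicate 2 it did at 1 of 10, against 65.4%. The 1 pair covered in both replicates was that of Hist1h2bh and Hist1h3f.

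Some peaks touched the windows of several histone genes and cannot be given to any 1 of them. In replicate 1, 26 of the 57 histone genes with any peak had only such shared peaks. In replicate 1 the windows of histone genes touched 65 peaks, of which 36 touched 1 histone gene, 24 touched 2 and 5 touched 3 or more. In replicate 2 they touched 41 peaks, of which 24 touched 1, 13 touched 2 and 4 touched 3 or more. The most crowded was a peak in the third Hist1 run (chr13:23571697-23574285 in replicate 1, 2589 bp, fold 19.1). It lay between 2 divergent pairs and touched the windows of Hist1h2ae, Hist1h2bg, Hist1h2bf and Hist1h2ad. Its counterpart in replicate 2 (chr13:23571742-23573918, 2177 bp, fold 6.50) touched the same 4. Of the 57 histone genes with any peak in replicate 1, 37 had 2 or more peaks (background 41.1%), and of the 49 in replicate 2, 12 did (background 43.3%).

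Peaks between the genes were few. Only peaks lying wholly inside the span of a run were counted. Of the 425.759 kb of all runs, replicate 1 had 60 such peaks that covered 16.3%, and replicate 2 had 38 that covered 9.37%. Peaks reaching past the edge of a run, such as those of Hist3h2a and Hist4h4, were left out, so these shares are too low for all peaks. Of the 60, only 4 lay over 1000 bp from every annotated start of any gene. Besides the one inside Hist1h1d given above, 1 covered chr13:23584324-23587135 (2812 bp, fold 19.1) near the 3′ end of Hist1h2be. The GENCODE starts of Hist1h2be lie beside Hist1h1e, over 30 kb away. RefSeq starts of Hist1h2be lay at both places, inside the peak it shared with Hist1h1e and inside the peak of 2812 bp. Near the 3′ end of Hist1h2be replicate 2 had 2 peaks, of 1112 bp (fold 7.31) and 871 bp (fold 3.92). The other 2 were small and without a counterpart in replicate 2: chr13:21813974-21814317 (344 bp, fold 4.11), 2228 bp from the nearest start, and chr3:96251401-96251829 (429 bp, fold 3.55). The only other coding gene inside the runs was Hfe, an iron regulator, which was marked in both replicates over 1405 and 1070 bp at the 16.8th percentile of fold.

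At the 3′ end, 61 of 67 histone genes carried the 16-base stem-loop sequence on the sense strand within 150 bases of a stop codon, 22 to 59 bases after it (median 31). It came in 5 forms, shown with the loop in capitals because they mark these transcripts as replication-dependent. The counts are genes with each form.
Form in 41 genes: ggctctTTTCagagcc
Form in 9 genes: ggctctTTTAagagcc
Form in 8 genes: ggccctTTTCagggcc
Form in 2 genes: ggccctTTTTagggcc
Form in 1 gene, Hist2h2ac: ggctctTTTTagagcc
The forms with ggccct belonged to H4 genes alone. No exact match was found at Hist1h4j, Hist1h2an, Hist1h3g, Hist1h4b, Hist1h4a and Hist2h2be, and all 6 were marked in both replicates. Hist1h3g had folds of 20.0 and 5.22 and widths of 1556 and 1228 bp. The 20.0 was that of a peak shared with Hist1h2af, and its peak of 1556 bp had 17.9. Hist1h4a had folds of 12.5 and 4.70, those of peaks shared with Hist1h3a. Its own wider peaks, of 1101 and 752 bp, had 10.5 and 3.79. At 25 genes the annotation ran over 100 bp beyond the stem-loop, and 18 of these were marked in both replicates. Their median width was 1829.5 bp and their median fold percentile 11.6. Of the 36 genes annotated no further than that, 25 were marked in both replicates, with 1050.5 bp and a percentile of 4.64.

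Genes that serve histone supply without belonging to the clusters were compared in the same way. Genes listed as replication-independent histone genes, such as the variants H3f3a, H3f3b and H2afz, were marked in both replicates in 9 of 17 cases (52.9%). This was near the 49.5% of all protein-coding genes. The median fold percentile of the 9 was 53.8. The 3 widest were H1f0 (2942 and 2259 bp), H3f3a (2509 and 2220 bp) and H3f3b (2678 and 2032 bp). H2afy2 had a peak in replicate 1 only, of 379 bp. No peak was found at Hils1 and H1fnt, linker histones of spermatids, at H1foo, that of oocytes, at H2afb1, H2afb2 and H2afb3, X-linked testis variants, or at H1fx. All 18 factors of histone transcription and messenger RNA processing were marked in both replicates, with a median percentile of 64.9. The widest were Cpsf2 (3085 and 2851 bp), Cpsf3 (2823 and 2343 bp) and Srrt (2697 and 2417 bp). All 20 histone chaperones and deposition factors were marked too, at a median percentile of 59.0, and Nasp (2687 and 2225 bp), Spty2d1 (2646 and 2244 bp) and Supt16 (2632 and 2198 bp) were the widest. The median percentile of the replication-dependent genes, 9.46, lay below all 3.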

How the data were processed

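H3K4me3 ChIP-seq peak lists of macrophages grown from C57BL/6J marrow without stimulation were used, from 2 biological replicates. Per the labels, each library started from 10 ng of DNA with a size range of 350 to 480, no unit given. Per the deposited provenance texts, the authors called pseudoreplicated peaks on each replicate's alignments and on both together (pooled), and a replicated list. The sources used here give no aligner, caller or thresholds, and do not say how reads that map to several places were treated. Each deposited peak carries a fold (a ratio), called by the authors and relative to what is not stated. The −log10 p of each peak was likewise computed by the authors when they called it, and deposited in the same lists. There are no counts, so depth is unknown and no interval is given.

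Starts came from GENCODE M21 on 21 chromosomes and sequences from RefSeq (GRCm38.p6, which is mm10). Each 50-base word of the runs, with flanks, was searched on both strands of the whole genome. Peak overlap was checked against a plain comparison on simulated peaks. Python 3.11.15, numpy 2.4.6 and pandas 2.3.3 were used. The members, lists and rules were chosen with earlier results of these data known. Every member may be named, and values are given for those unmarked or marked in 1 replicate, the widest, narrowest, highest and lowest, all of Hist2, Hist3, Hist4 and H1, and those with no stem-loop. With 1 group there is no test, and all results are descriptions. Alternatives are given in the closing section.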

Additional observations from a re-analysis of the deposited data

How the results depend on the processing

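No paired analysis was possible because there was 1 group of 2 replicates and no test. The number of histone genes marked in both replicates, 49, was 39 with a window of 500 bp, 53 with one of 2500 bp, 41 when each list was limited to its 15000 most significant peaks by −log10 p, 57 in the pooled list and 55 in the replicated list. Only the 5′ end, or an overlap of 100 bp, gave 49 each. Leaving out a replicate gave 49 to 57. The next alternatives were chosen after seeing the data: RefSeq starts gave 50, and leaving out genes of repeated sequence gave 46 of 57. By type, H2B went to 7 with the window of 500 bp. By cluster, Hist3 went to 2 in the pooled list and in the replicated list, and to 1 to 2 when a replicate was left out. The median width became 2546.5 bp when peaks were joined within 1000 bp (3362 bp in replicate 1 and 1599 bp in replicate 2, where all marked genes had 2149 and 1741 bp), and stayed within 846 to 1508 bp when a replicate was left out. The median fold percentile was 33.3 when ranked among all peaks of the list, which also hold the many peaks away from coding starts, and 6.22 to 11.5 when a replicate was left out. Peaks between the genes numbered 2 when over 2500 bp from every start and 2 in the replicated list, and 3 to 4 when a replicate was left out. The cause was not tested. Of the widths of the 49 single genes, 33 moved beyond their spread when peaks were joined, 3 with the peak of highest fold, and 1 each in the pooled and replicated lists.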
